A study of Mus musculus with 5 samples.

Results

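Neural RNA-binding proteins of 4 families, encoded by 10 genes, were compared across the adult mouse brain: the Hu proteins (Elavl1, Elavl2, Elavl3 and Elavl4), the Nova proteins (Nova1 and Nova2), the Musashi proteins (Msi1 and Msi2) and the polypyrimidine tract-binding proteins (Ptbp1 and Ptbp2). They were taken by symbol from the RefSeq transcripts of the deposited expression table, with FPKM added up over the transcripts of each symbol, so the members were 10 of 20340 coding genes. The study measured poly(A) RNA by sequencing in regions with adult neurogenesis and in a control tissue without it. The regions were the subventricular zone (SVZ, the stem cell niche along the lateral ventricle), the olfactory bulb (OB, where new neurons from the SVZ settle), the dentate gyrus (DG, the hippocampal niche) and the striatum (STR, the control tissue beside the SVZ). All samples were untreated wild-type C57BL/6 adult males, with 2 samples of the SVZ, labelled as biological replicates, and a single sample for each other region. The labels do not give the number of animals behind a sample. Values are FPKM, that is, sequenced fragments per kilobase of transcript, corrected for the size of the library, so levels can be set side by side between genes.

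RNA-binding proteins set how transcripts are spliced, how long they last, where they go and how often they are translated, and neurons use a set of their own. Hu proteins bind U- and AU-rich elements and stabilise transcripts: Elavl1 (HuR) is made in most cells, while Elavl2 (HuB), Elavl3 (HuC) and Elavl4 (HuD) are made in neurons. Nova proteins regulate alternative splicing of synaptic transcripts in neurons, and Musashi proteins repress or promote translation and are used as markers of neural stem and progenitor cells and of astrocytes. Ptbp1 represses neuronal exons in progenitors and in most other cells, and its paralogue Ptbp2 (nPTB) takes its place as neurons form.

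Exons are shown first, because they tie the members of a family to each other and to the transcript values given further on. All sequences are from GENCODE M21 on GRCm38, and each exon shown lies in the coding sequence. The 17 deposited RefSeq transcripts of the members were all matched there by identifier, but the matched forms can differ from the deposited ones. The matched Msi2 sequence held 1806 distinct 50-base stretches against a deposited length of 6490 bases, and that of Msi1 3084 against 1551. The 39-base exon that sets apart the transcripts of the neuronal Hu genes encodes a piece of the linker between RNA recognition motifs, and Elavl1 lacks it. It is exon 6 of 7 in the transcripts used, at chr4:91254141-91254179 (minus strand) in Elavl2, chr9:22024674-22024712 (minus strand) in Elavl3 and chr4:110209740-110209778 (minus strand) in Elavl4. Capitals mark the 32 bases that are the same in the 3 genes.
Elavl2: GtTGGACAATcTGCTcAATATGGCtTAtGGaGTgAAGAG
Elavl3: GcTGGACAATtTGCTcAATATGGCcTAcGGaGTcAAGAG
Elavl4: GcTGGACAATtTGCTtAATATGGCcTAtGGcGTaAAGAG
A 34-base exon of the PTB genes is shown because it links the paralogues: PTB proteins promote its skipping, which shifts the reading frame and sends the transcript to nonsense-mediated decay. It is exon 10 of 14 in both genes, at chr10:79862014-79862047 (plus strand) in Ptbp1 and chr3:119724612-119724645 (minus strand) in Ptbp2. Capitals mark the 26 bases that are the same in both.
Ptbp1: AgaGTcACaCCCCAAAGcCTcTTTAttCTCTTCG
Ptbp2: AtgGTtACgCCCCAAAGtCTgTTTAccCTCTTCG
The third exon separates the RefSeq transcripts of Ptbp1 and carries the transcript pattern described below. It has 78 bases, is exon 8 of 14 at chr10:79860117-79860194 (plus strand), and encodes a piece of the linker between RNA recognition motifs. Skipping it is known to weaken the repression of target exons by Ptbp1.
Ptbp1: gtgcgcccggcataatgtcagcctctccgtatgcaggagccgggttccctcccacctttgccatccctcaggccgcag
Over the aligned coding sequence, the neuronal Hu genes shared 74.6% to 78.3% of bases with one another and 71.6% to 73.2% with Elavl1. Nova1 and Nova2 shared 70.0%, Msi1 and Msi2 73.9%, and Ptbp1 and Ptbp2 70.4%. No stretch of 50 bases was shared between members. Ptbp1 shared 7.14% of its 50-base stretches with Gm4900 and Elavl3 shared 4.35%, mostly with the overlapping gene Gm49318, so their values are the least certain in this respect. 

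The libraries came in sets that cut across the regions. Gapdh stood at 32.4 FPKM in SVZ sample 2 and 39.5 in STR, against 414 to 563 in SVZ sample 1, OB and DG. RefSeq transcripts under 200 bases at 1 FPKM or more numbered 153 and 161 in the first set and 14 to 24 in the other. The labels give no batch, and the region and the set cannot be told apart for OB, DG and STR. The main differences are therefore given over all libraries and also inside a set: STR against SVZ sample 2, and OB and DG against SVZ sample 1. OB and DG are set against STR by adding the in-set steps through the SVZ, called bridged values. Most region markers matched the labels: C1ql2 of dentate granule neurons stood at 217 FPKM in DG and 0.225 to 1.15 elsewhere, and Calb2 at 656 FPKM in OB and 0.981 to 7.72 elsewhere. Of the dentate markers, Calb1 (111 FPKM in DG, 124 in STR) and Pdzd2 (23.5 in DG, 26.6 and 30.5 in the SVZ samples) were not highest in DG. Of the olfactory bulb markers, Tbr1 (8.06 FPKM in OB, 27.6 in DG) and Slc17a7 (453 in OB, 752 in DG) were not highest in OB. The other markers of these lists were highest in their own region. Drd1a of striatal neurons stood at 158 FPKM in STR and at 108 and 119 in the SVZ samples, so the SVZ libraries carried a striatal marker. Ccdc153 of ependymal cells (55.0 and 23.9 FPKM) and Mki67 of cycling cells (11.3 and 7.38) stood higher in the SVZ samples than in any other library. In such bulk tissue, fewer cells of a type and less RNA per cell cannot be told apart.

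All 10 members were expressed at over 5 FPKM in each of the 5 libraries. Elavl3 was the highest member in every library, between percentiles 92.6 and 97.2 of coding genes. Elavl4 was the lowest member in all 5 libraries, between percentiles 53.6 and 62.8. By the range of log2(FPKM + 1) over the 4 region means, Msi1 varied most among the members (2.37), followed by Elavl3 (1.46), Ptbp1 (1.18) and Msi2 (1.17). Nova1 (0.22) and Elavl1 (0.31) varied least. Ranges of 1 log2 unit or more are common in this table: 51.1% of the 14029 coding genes that reached 1 FPKM in any library had one, and the median range was 1.02.

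**Figure D1:**
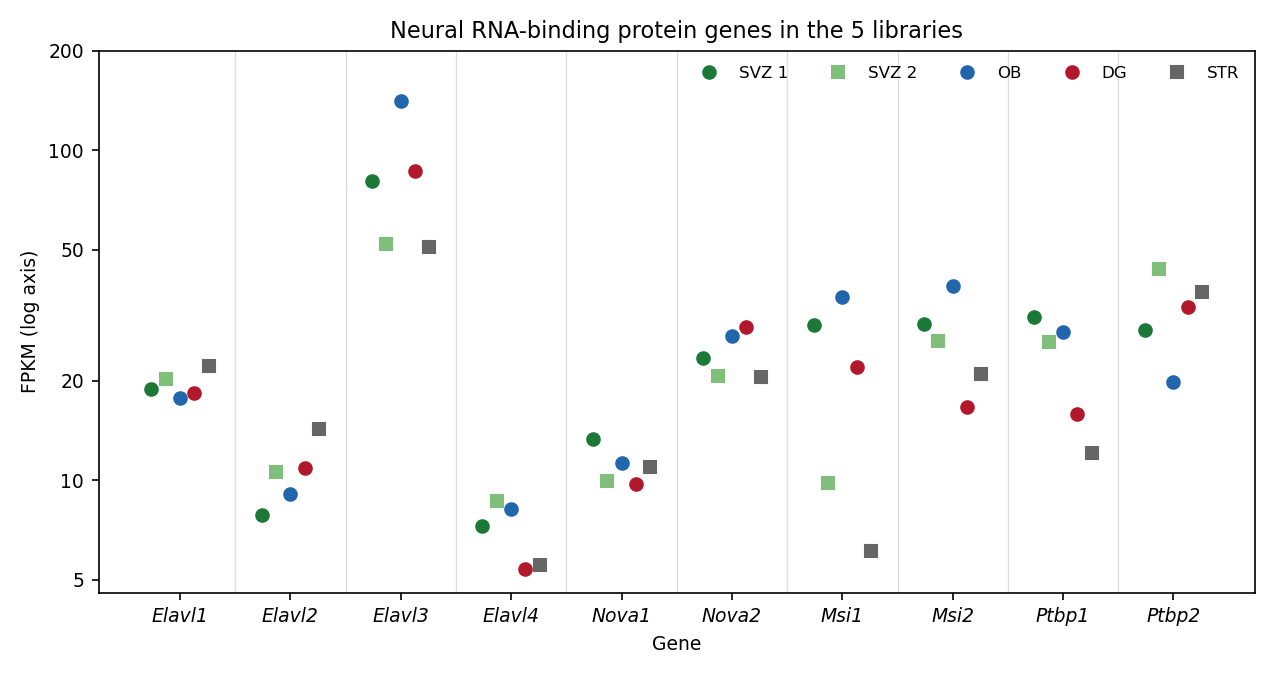
Level of each member in FPKM (log axis) in the 5 libraries, with circles for SVZ sample 1, OB and DG and squares for SVZ sample 2 and STR. Elavl3 lies above the other members in each library, and the Msi1 points are the most spread, from 6.11 FPKM in STR to 35.9 in OB.

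The SVZ samples bear on how far a member can be read. They differed by 1 log2 unit or more in 1 member, Msi1 (29.6 and 9.84 FPKM, a 3.01-fold difference), and in 12.9% of coding genes. The difference between the SVZ samples followed GC content. Its median ran from -0.24 log2 in the decile of coding genes with the least GC to 0.97 in the decile with the most. Msi1, at 57.9% GC, lay in a decile with a median of 0.82, and its own difference was 1.5. Its GC content was read from GENCODE, whose form of Msi1 is longer than the deposited one. Elavl3 (54.1% GC) differed by 0.62 where its decile had 0.54. Ptbp2 (40.6% GC) differed by -0.59 where its decile had -0.24, and Nova1 (38.5% GC), in the same decile, differed by 0.38. Msi1 and Nova1 were thus the members farthest above the median of genes of like GC content.

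**Figure D2:**
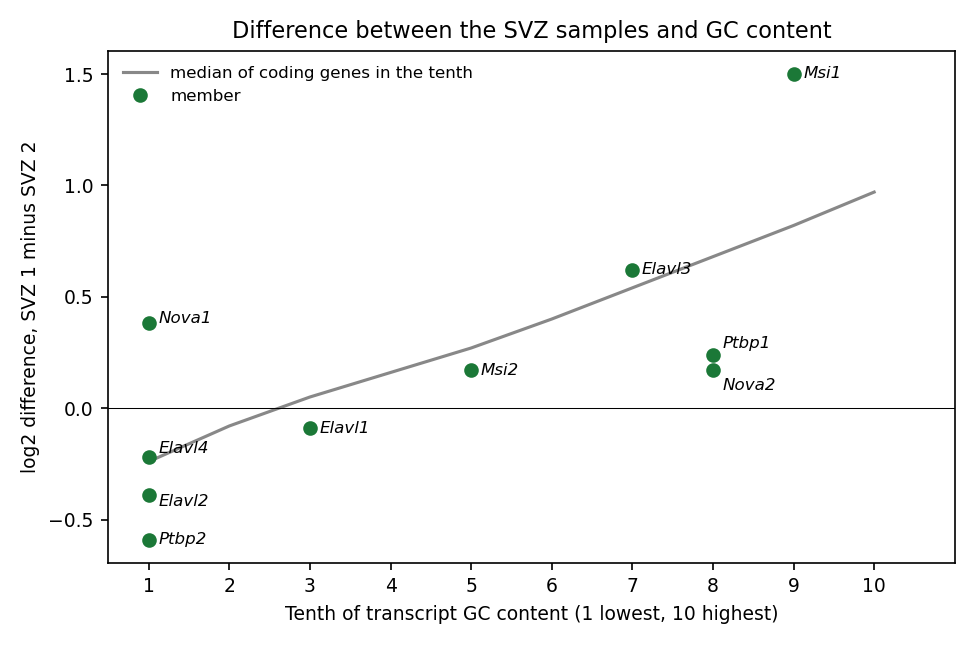
Difference between SVZ sample 1 and SVZ sample 2 in log2(FPKM + 1) against the decile of transcript GC content (1 lowest), with points for members and a line for the median of coding genes in each decile. The line climbs from -0.24 to 0.97, and Msi1 lies above it at 1.5.

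The 6 pairs of regions were compared for all genes with limma on log2(FPKM + 1), with Benjamini-Hochberg adjustment of the p-values. The fit had 1 residual degree of freedom, that of the SVZ pair, so standard errors (SE) assume that OB, DG and STR vary as the SVZ does, and p-values measure only the spread between the SVZ samples. No member, and no other gene, passed an adjusted p of 0.05 in any pair. Nothing particular to the members is read from their unadjusted limma p-values either, because small ones were uncommon among all tested genes too. Such p-values do not show that regions are alike. Members were therefore counted by size, as 1 log2 unit or more apart (a 2-fold difference), beside the share of all tested genes that were.

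In SVZ minus STR, 2 members were apart, Msi1 and Ptbp1, both higher in the SVZ; 9.13% of the 15442 tested genes were apart and 6.84% were higher. The median over the members was 0.22, beside 0.21 over all tested genes. In SVZ minus OB, Elavl3 and Msi1 were apart, both lower in the SVZ, where 22.6% of genes were apart and 14.1% lower; the medians were -0.01 and -0.20. In SVZ minus DG, 0 members were apart, where 21.0% of genes were, with medians of 0.08 and 0.05. A single gene is 10% of the members, so nothing particular to them is read from these counts.

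In OB minus STR, Elavl3, Msi1 and Ptbp1 were apart, all higher in OB, where 38.1% of genes were apart and 28.7% higher; the median was 0.44 over the members and 0.47 over all genes. In DG minus STR, Msi1 was apart and higher in DG, where 29.0% of genes were apart and 17.3% higher, with medians of -0.09 and 0.23. In OB minus DG, Msi2 was apart and higher in OB, where 21.2% of genes were apart in either direction, with medians of 0.36 and 0.25. The in-set values kept fewer members apart. Ptbp1 remained in SVZ minus STR, where 5.56% of genes were apart in the in-set difference, and Msi2 in OB minus DG, which lies inside a set. Ptbp1 remained only with a short second row of its symbol, described below, and was at 0.96 without it. No member was apart by the in-set value in SVZ minus OB (17.2% of genes were) or SVZ minus DG (19.9%), or by the bridged value in OB minus STR (17.4%) or DG minus STR (17.9%).

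Scaling moved the balance of higher and lower genes in 5 of the 6 pairs. The median of all tested genes was 0.47 in OB minus STR as deposited and -0.06 after scaling each library to the median ratio over coding genes. The share of apart genes that were higher in OB then moved from 75.4% to 43.9%, and the apart members became Msi1 (higher in OB) with Elavl2 and Ptbp2 (lower in OB). That share moved from 75.0% to 56.0% in SVZ minus STR, from 37.8% to 56.2% in SVZ minus OB, from 59.6% to 40.5% in DG minus STR and from 70.9% to 55.5% in OB minus DG. In SVZ minus DG it was 60.2% and 60.5%. Msi1 kept its sign in all 6 pairs under this scaling, as did Elavl3 and Ptbp1.

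**Figure D3:**
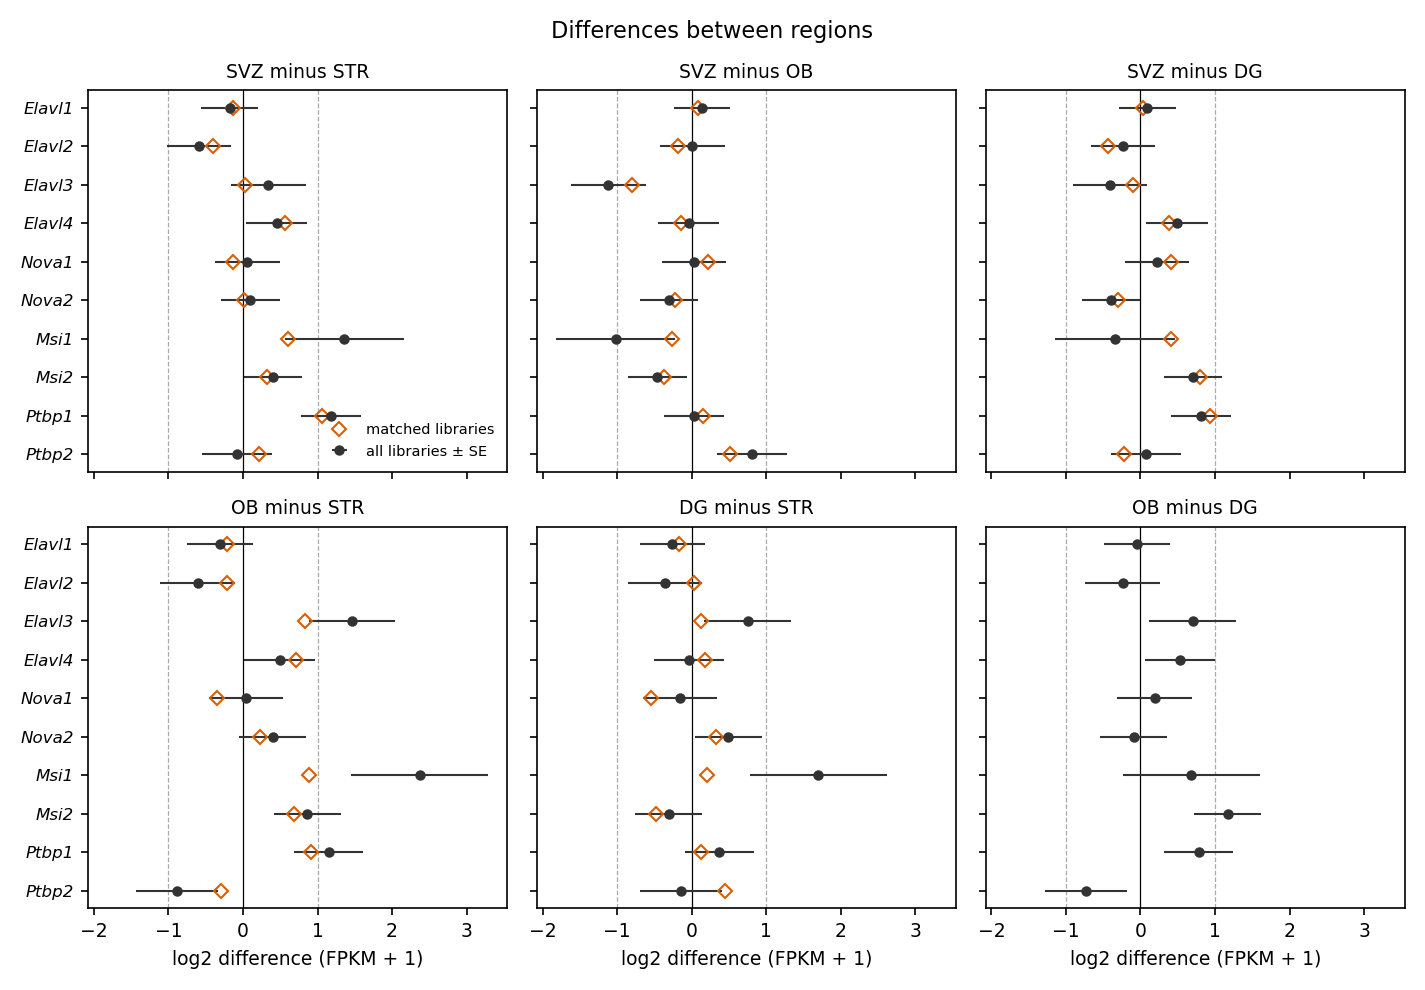
Difference in log2(FPKM + 1) of each member in each of the 6 pairs of regions, with black points and bars for the value over all libraries and its limma SE, open orange diamonds (matched libraries) for the in-set or bridged value and dashed lines at 1 log2 unit either way. The diamonds of Msi1 lie nearer to 0 than its points in the pairs with a bridged value, while that of Ptbp1 in SVZ minus STR lies beyond the dashed line, at 1.06. Without the 437-base Ptbp1 row that value is 0.96.

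Among the Hu genes, Elavl1, which is made in most cells and stabilises AU-rich transcripts, stood at 18.9 and 20.2 FPKM in the SVZ samples, 17.7 in OB, 18.4 in DG and 22.2 in STR. As deposited, these 5 values lie close together. The order STR, SVZ, DG, OB spans 0.31 log2 units, less than the SE of any of its differences. For Elavl1, OB minus STR was -0.87 under the other scaling and -0.44 relative to genes of like GC content. Elavl3, the neuronal member that dominates the family here, stood at 80.4 and 51.8 FPKM in the SVZ samples (66.1 ± 20.2, SD, n = 2), 141 in OB, 86.4 in DG and 50.8 in STR. OB was above every other library, and STR and SVZ sample 2 were nearly equal. The difference was 1.12 ± 0.50 log2 units in OB over the SVZ (limma adjusted p = 0.494) and 0.80 inside the set. OB over STR was 1.46 ± 0.58 (limma adjusted p = 0.399), 0.83 bridged, 0.88 under the other scaling and 0.61 relative to genes of like GC content. OB was higher in all of these, and only the values over all libraries reached 1 log2 unit.

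Elavl2 and Elavl4 were far less abundant. The deposited loci of the Hu genes on mm9 are chr8:4284782-4325100 for Elavl1, chr4:90917457-91066675 for Elavl2, chr9:21819449-21856467 for Elavl3 and chr4:109876342-110024516 for Elavl4. Elavl2 stood at 7.86 and 10.6 FPKM in the SVZ samples, 9.07 in OB, 10.9 in DG and 14.3 in STR. Elavl4, which is known for its role in neuronal differentiation, stood at 7.29 and 8.67 FPKM in the SVZ samples, 8.19 in OB, 5.37 in DG and 5.55 in STR. Elavl4 had its lowest values in DG and STR. The SVZ was higher by 0.49 ± 0.41 than DG (0.38 inside the set) and by 0.45 ± 0.41 than STR (0.56 inside the set). These steps are little more than their SE. By the highest transcript alone, SVZ minus DG was 1.02 and SVZ minus STR was -0.01. Elavl2 had its highest value in STR, but STR over the SVZ was only 0.59 ± 0.43 and 0.40 inside the set.

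The make-up of the family moved with Elavl3. Elavl3 gave 80.2% of the FPKM of the 4 genes in OB, 71.4% in DG, 70.2% and 56.7% in the SVZ samples and 54.7% in STR. Elavl1 ran the other way, from 10% in OB to 23.9% in STR. The neuronal genes together stood 8.95-fold over Elavl1 in OB, 5.59-fold in DG, 5.05- and 3.51-fold in the SVZ samples and 3.18-fold in STR. The ratio in SVZ sample 2 was nearer to STR, of its own library set, than to SVZ sample 1. Summed general neuron markers, 11 of 12 of which were in the table, stood at 4081 FPKM in OB, 3773 in DG, 2628 and 2124 in the SVZ samples and 2509 in STR, and their part in the ratio was not tested.

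RefSeq lists 4 transcripts each for Elavl2 and Elavl4, of which NM_207686 and NM_001163397 lack the 39-base exon shown above. NM_207686 made up 3.98% and 28.7% of Elavl2 FPKM in the SVZ samples, 0.00253% in STR and 0 in OB and DG. NM_001163397 made up 4.81% and 9.74% of Elavl4 in the SVZ samples, 4.54% in OB, 0.0808% in DG and 49.1% in STR. The high values are single libraries. The estimates did not hold between the SVZ samples for other transcripts either: the Elavl4 transcript NM_010488 stood at 3.08 FPKM in SVZ sample 1 and 0.219 in SVZ sample 2. Transcripts at this level that differ by one short exon could not be compared between regions.

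Nova1 (chr12:47795504-47919762 on mm9) and Nova2 (chr7:19511237-19550668) varied little as deposited. Nova1, a splicing regulator known from the hindbrain and spinal cord, stood at 13.3 and 9.95 FPKM in the SVZ samples, 11.3 in OB, 9.73 in DG and 11 in STR. The gap between the SVZ samples was wider than that among OB, DG and STR. Under the other scaling, OB minus STR for Nova1 moved from 0.04 to -0.50. Nova2, the main member in the cortex and hippocampus, stood at 23.5 and 20.7 FPKM in the SVZ samples, 27.4 in OB, 29.2 in DG and 20.5 in STR. OB and DG lay above the other 3 libraries, and the largest step, DG over STR, was 0.49 ± 0.45 log2 units and 0.32 bridged. Relative to genes of like GC content the direction turned, with DG minus STR at -0.16 and OB minus STR at -0.65. Part of the Nova2 value in SVZ sample 2 (5.83 FPKM) and STR (3.25) came from a second deposited row of 2652 bases with its own gene identifier, which was at 0 in SVZ sample 1, OB and DG. That identifier falls in the range used for minus-strand loci, while the other Nova2 row falls in the plus-strand range; on 20 of 20 chromosomes these ranges did not overlap in the lncRNA catalogue. Without the second row, Nova2 stood at 14.9 FPKM in SVZ sample 2 and 17.2 in STR, and DG over STR was 0.73 ± 0.55 over all libraries and 0.11 bridged. Within each library, Nova2 stood over Nova1 by 3-fold in DG, 2.43-fold in OB, 1.77- and 2.08-fold in the SVZ samples and 1.87-fold in STR; without the second row the ratio was 1.5 in SVZ sample 2 and 1.57 in STR. DG and OB had the highest ratios with and without that row. These ratios are not corrected for GC content, in which Nova2 (56.3%) and Nova1 (38.5%) differ. Relative to genes of like GC content, OB minus STR was -0.65 for Nova2 but 0.48 for Nova1, so the order of OB and STR did not hold.

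Msi1, a translational regulator of neural stem and progenitor cells, was the most variable member. It stood at 29.6 and 9.84 FPKM in the SVZ samples (19.7 ± 14.0, SD, n = 2), 35.9 in OB, 22.1 in DG and 6.11 in STR. The highest value was 5.87 times the lowest, and the 3 libraries of 1 set all lay above both of the other. Over all libraries Msi1 was higher in the SVZ than in STR by 1.36 ± 0.80 log2 units, in OB than in STR by 2.37 ± 0.92 (limma adjusted p = 0.394) and in DG than in STR by 1.70 ± 0.92 (limma adjusted p = 0.565). Inside the sets these were 0.61, 0.88 and 0.20. Msi1 was lower in the SVZ than in OB by 1.02 ± 0.80, and by 0.27 inside the set. Against DG the sign turned: the SVZ was lower by 0.34 ± 0.80 over all libraries and higher by 0.41 inside the set. Relative to genes of like GC content, SVZ over STR was 0.92, OB over STR 1.21 and DG over STR 0.93. STR was the lowest library, but how much of each difference belongs to the library set cannot be told apart from the region.

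By profile, 3 coding genes were most like Msi1 over the 5 libraries, out of 11429 candidates at 5 FPKM or more in a library. Ankrd54 was at a root mean square distance of 0.06 log2 units, with 15.3 and 4.67 FPKM in the SVZ samples, 19.6 in OB, 11.9 in DG and 3.16 in STR. Col9a3 was at 0.10 and Hyal2 at 0.12. All of them were high in SVZ sample 1, OB and DG and low in SVZ sample 2 and STR, the split of the library sets. They were picked for having the profile of Msi1, so this was fixed in advance and nothing is read from it. Of the 14 markers of neural stem cells and astrocytes, 5 (Gfap, Aqp4, Aldh1l1, Fabp7 and Gjb6) were also higher in SVZ sample 1, OB and DG without overlap, and Slc1a2 was lower there. The share of all genes with such a split was not computed, so nothing particular to the markers is read from this count. The sum of the 14 markers, most of it from Glul, Slc1a2 and Slc1a3, was 1677 and 1635 FPKM in the SVZ, 2849 in OB, 1805 in DG and 1693 in STR. Their part in the Msi1 values was not tested.

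Msi2, the paralogue of Msi1, did not divide by library set. It stood at 29.7 and 26.4 FPKM in the SVZ samples (28.0 ± 2.38, SD, n = 2), 38.8 in OB, 16.7 in DG and 21.0 in STR. OB was the highest library and DG the lowest, and both SVZ samples lay between OB and STR. OB over DG was 1.17 ± 0.45 (limma adjusted p = 0.457), a difference between libraries of 1 set, and was 0.90 both under the other scaling and relative to genes of like GC content. SVZ over DG was 0.71 ± 0.39, and 0.80 inside the set. Msi1 over Msi2 was close to 1 in SVZ sample 1 (0.997) and OB (0.925) and 1.32 in DG, and 0.374 in SVZ sample 2 and 0.291 in STR, again by set.

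Catalogue lncRNAs within 10 kb were found near Msi1, Msi2 and Ptbp1 alone among the members, as 5 loci. XLOC_019367 lies on the minus strand of chromosome 5 at 115870512 to 115879533 (mm9), 160 bases from the start of Msi1 (115879694 to 115904211), so the genes are head to head. It stood at 4.70 and 2.23 FPKM in the SVZ samples, 0.344 in OB and 0.232 in STR, and was listed at 0 in DG. Both SVZ samples were above every other library. SVZ over STR was 1.80 ± 0.46 (limma adjusted p = 0.880), 1.39 inside the set. SVZ over OB was 1.68 ± 0.46 (limma adjusted p = 0.275), 2.09 inside the set. The lncRNA thus had its highest levels in the SVZ, unlike Msi1, which was highest in OB. Near Msi2 (chromosome 11, 88152884 to 88579581), C030037D09Rik lies on the plus strand, 377 bases beyond the higher coordinate of the locus. The Msi2 identifier falls in the minus-strand range, so these genes too are head to head. C030037D09Rik stood at 6.99 and 4.93 FPKM in the SVZ samples, 3.98 in OB, 4.17 in DG and 2.90 in STR. SVZ over STR was 0.82 ± 0.43 for it, and 0.61 inside the set. The labels do not give strandedness, so reads of genes that overlap cannot be told apart.

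Ptbp1, the repressor of neuronal exons, stood at 31.2 and 26.3 FPKM in the SVZ samples (28.8 ± 3.48, SD, n = 2), 28.1 in OB, 15.9 in DG and 12.1 in STR. The SVZ samples and OB lay together above DG and STR, without overlap. SVZ over STR was 1.18 ± 0.40 log2 units (limma adjusted p = 0.971), 1.06 inside the set, 0.90 under the other scaling and 0.76 relative to genes of like GC content. SVZ over DG was 0.81 ± 0.40 (limma adjusted p = 0.517) and 0.93 inside the set. OB over STR was 1.15 ± 0.46 (limma adjusted p = 0.399) and 0.91 bridged, but 0.10 relative to genes of like GC content. Ptbp1 was the only member whose SVZ value was 1 log2 unit or more over STR both over all libraries and inside the set, where 3.65% of genes were. Without the short row described below, its in-set value was 0.96, under that threshold. The summed markers of cycling cells were 148 and 129 FPKM in the SVZ, against 31.9 to 39.3 in the other libraries, and those of migrating neuroblasts at 449 and 314 in the SVZ, 714 in OB, 111 in DG and 93.4 in STR. With the short row included, Ptbp1 in OB (28.1 FPKM) lay between the SVZ samples, but without it SVZ sample 2 stood at 16.2. The cycling sum of OB was near those of DG and STR, but Pcna made up much of each. Pcna stood at 21.7 FPKM for OB, 16.8 for DG and 32.6 for STR, beside 26.7 and 56.4 for the SVZ samples. The part of cycling cells and neuroblasts in the Ptbp1 values was not tested.

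A short row of 437 bases was added to Ptbp1 by the symbol, with 10.1 FPKM in SVZ sample 2, 4.24 in STR and 0 elsewhere. Its gene identifier too falls in the minus-strand range, while Ptbp1 lies on the plus strand (chromosome 10, 79314122 to 79337379 on mm9, a deposited locus shared with BC005764 and E130317F20Rik). Without this row Ptbp1 stood at 16.2 FPKM in SVZ sample 2 and 7.86 in STR. SVZ sample 2 then lay at the level of DG (15.9), so the SVZ samples and OB no longer stood together above DG. SVZ over STR was 1.41 ± 0.57 (0.96 inside the set), and OB over STR was 1.71 ± 0.66 (0.81 bridged). SVZ over DG was 0.48 ± 0.57 (0.93 inside the set), and SVZ minus OB turned from 0.03 to -0.30 ± 0.57. STR remained the lowest library, and the SVZ samples came to lie 0.91 log2 units apart rather than 0.24.

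The shares of the RefSeq transcripts of Ptbp1 differed between libraries. Like those of Elavl2 and Elavl4, these transcripts differ by a short exon and were low in some libraries, so the shares are given as values only. NM_008956, which skips the 78-base exon shown above, stood at 21.2 and 11.8 FPKM in the SVZ samples, 18.3 in OB, 7.30 in DG and 3.11 in STR. NM_001077363, which includes it, stood at 10 and 4.41 FPKM in the SVZ samples, 9.70 in OB, 8.59 in DG and 4.75 in STR. As a share of both, the transcript with the exon was 32.1% and 27.2% in the SVZ samples, 34.6% in OB, 54.1% in DG and 60.4% in STR. DG and STR lay 19.5 percentage points or more above the other 3 libraries, which spanned 7.36 points. DG and STR are single libraries, from different sets. A gap of 15 points or more between those libraries was seen in 9 of the 1208 genes with 2 transcripts and 5 FPKM or more in each library (0.745%). The grouping of libraries and the 15-point cut were set after the Ptbp1 values were seen. That share therefore does not measure how rare such a gap is. The SVZ samples differed by 4.91 points in Ptbp1, beside a median of 12.3 points over those genes. They differed by 15 points or more in 546 of those genes (45.2%). This pattern was chosen after the values were seen, and it has no test.

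**Figure D4:**
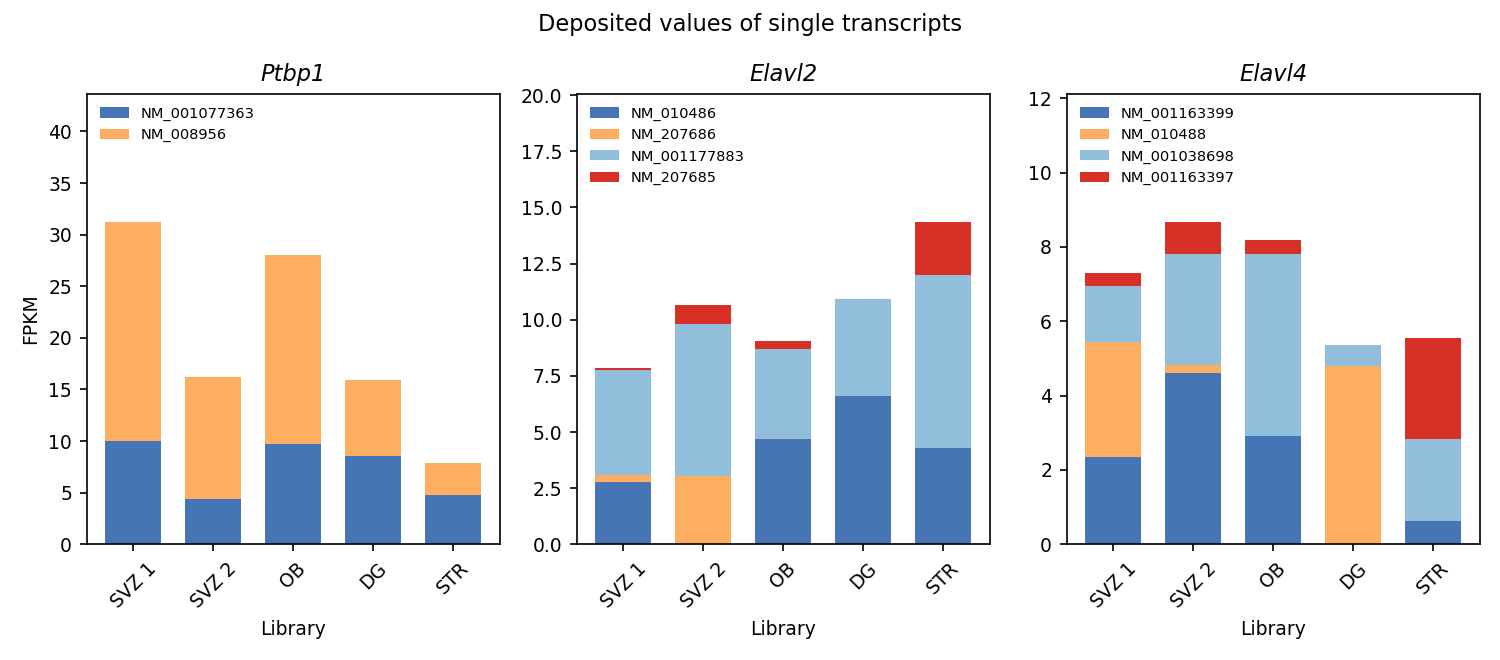
FPKM of the deposited transcripts of Ptbp1, Elavl2 and Elavl4 as stacked bars in the 5 libraries, without the 437-base Ptbp1 row. The Ptbp1 transcript that skips the 78-base exon makes up most of the bar in both SVZ samples and OB and less than its partner in DG and STR.

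Ptbp2, the neuronal paralogue (chr3:119421660-119486306 on mm9), stood at 28.6 and 43.6 FPKM in the SVZ samples (36.1 ± 10.6, SD, n = 2), 19.8 in OB, 33.6 in DG and 37.3 in STR. OB was the lowest library, and SVZ sample 2 the highest. SVZ over OB was 0.81 ± 0.47 (limma adjusted p = 0.590), 0.51 inside the set and 1.08 under the other scaling. OB under STR was 0.88 ± 0.55 (limma adjusted p = 0.438), 0.29 bridged and 1.45 under the other scaling. Since skipping of the 34-base exon shown above leads to decay, the Ptbp2 level is given here beside that of Ptbp1; the table lists 1 Ptbp2 transcript, which includes it, so its use was not measured.

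Ptbp2 over Ptbp1 was 3.08 in STR and 2.11 in DG, 0.705 in OB and 0.917 and 1.66 in the SVZ samples. STR and DG had the highest ratios and OB the lowest. Without the second Ptbp1 row the ratio was 4.75 in STR and 2.70 in SVZ sample 2, so SVZ sample 2 then lay above DG, and the SVZ samples fell on both sides of it. SVZ sample 1 and OB, of 1 set, held more Ptbp1 than Ptbp2, and DG, of the same set, held more Ptbp2. These ratios are not corrected for GC content, in which Ptbp1 (54.7%) and Ptbp2 (40.6%) differ. Relative to genes of like GC content, OB minus STR moved from 1.15 to 0.10 for Ptbp1 and from -0.88 to -0.44 for Ptbp2.

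**Figure D5:**
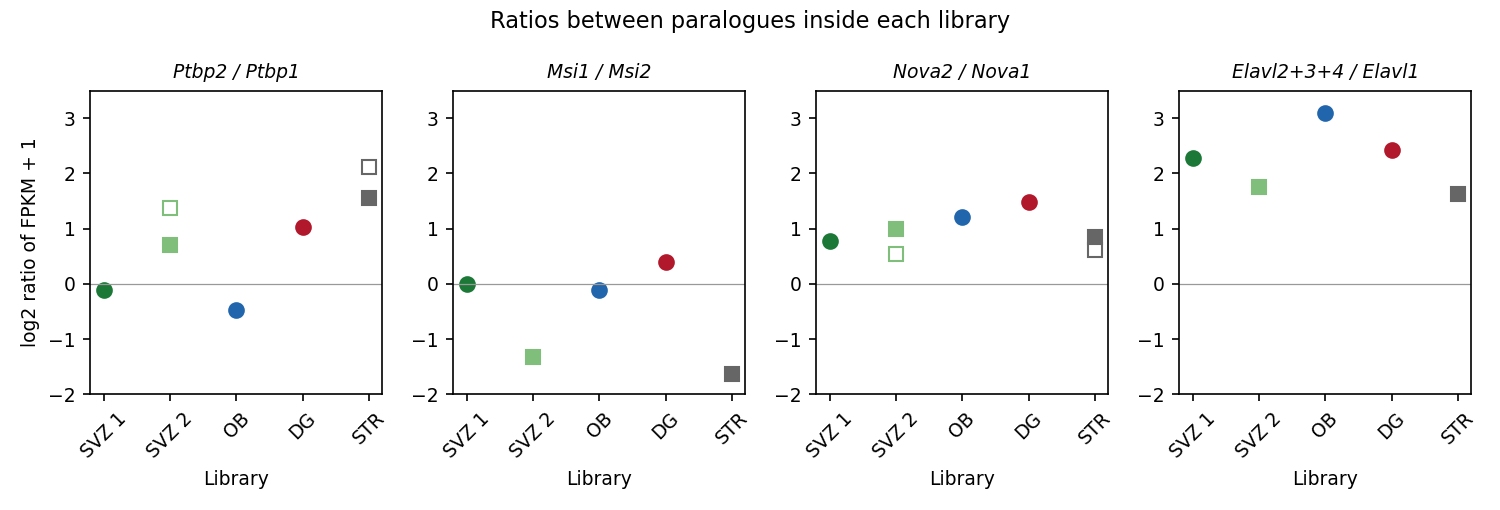
Log2 ratio of FPKM + 1 between paralogues within each library, not corrected for GC content, with open symbols for the ratio without the second Ptbp1 or Nova2 row. Ptbp2 over Ptbp1 runs from -0.48 in OB to 1.55 in STR, and the open symbols lie above it in SVZ sample 2 and STR.

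Other RNA-binding proteins were read from lists. Of 26 other splicing regulators, 25 were tested. In OB minus STR, 8 were 1 log2 unit or more higher and 3 lower, with a median of 0.25 beside 0.47 over all genes, of which 28.7% were higher. By the bridged value 3 were higher and 3 lower, where 17.4% of all genes were apart. In SVZ minus STR 1 was higher and 0 lower, where 9.13% of all genes were apart, with a median of 0.20. In DG minus STR, 6 were higher and 1 lower (median 0.33), where 17.3% of all genes were higher. There, 3 were higher and 1 lower by the bridged value, by which 17.9% of all genes were apart. Of 28 genes of RNA stability, localisation and translation, 26 were tested in OB minus STR, where 3 were higher and 3 lower (1 and 3 by the bridged value). Of all genes in that pair 38.1% were apart, and 17.4% by the bridged value. No gene of either list passed the limma test in any of the 6 pairs. Pcbp3, a poly(C)-binding protein, stood at 303 FPKM in OB and 16.0 to 31.9 elsewhere, and OB over STR was 4.16 ± 0.60 (3.42 bridged, limma adjusted p = 0.210). Srrm4, an activator of neuronal microexons, stood at 22.6 FPKM in OB, 13.6 in DG, 5.16 and 3.87 in the SVZ samples and 2.48 in STR. Rbfox1, a neuronal splicing regulator, stood at 197 FPKM in DG and 164 in STR, 91.5 and 104 in the SVZ samples and 49.2 in OB. Rbm24 was at 2.15 FPKM in OB and 11.4 to 19 elsewhere. Mbnl1 (11.1 FPKM in OB, 39.2 in STR) was lowest in OB, Cpeb1 (24.9 FPKM in DG) highest in DG, and Khdrbs2 stood at 3.22 FPKM in STR against 7.10 to 17.2 elsewhere. Pcbp4 stood at 56.8 to 76.3 FPKM in SVZ sample 1, OB and DG and at 25.3 and 22.8 in SVZ sample 2 and STR, the split of the library sets.

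Genes described as RNA targets of the members formed a list of 11. In OB minus STR 4 were higher and 0 lower, with a median of 0.40 beside 0.47 over all genes, of which 28.7% were higher. By the bridged value 2 were higher, where 17.4% of all genes were apart. In SVZ minus STR 0 of 10 tested were apart, where 9.13% of all genes were, with a median of 0.11. In SVZ minus OB 1 was higher and 3 lower (1 and 2 inside the set), with a median of -0.48 beside -0.20 over all genes. Of all genes in that pair 22.6% were apart and 14.1% lower, and 17.2% were apart inside the set. Numb, whose translation Musashi is known to repress, stood at 39.1 FPKM in OB and 12.6 to 19.8 elsewhere, and Cdkn1a, another such target, at 100.2 FPKM in OB and 8.48 to 17.2 elsewhere. Both were highest in OB, which also had the most Msi1 and Msi2. OB is a single library, the values do not measure translation, and a link was not tested. Gap43, a growth cone transcript bound by Elavl4, stood at 268 and 299 FPKM in the SVZ samples, 131 in OB, 65.4 in DG and 174 in STR. Dlg4 (PSD-95), repressed by PTB proteins, stood at 439 and 209 FPKM in the SVZ samples, 378 in OB, 456 in DG and 254 in STR, again the split of the library sets. Kcnj6, a Nova target, stood at 48.4 FPKM in DG and 16.6 in OB and under 1 FPKM in the other 3 libraries. Gabbr1 (231 to 279 FPKM) and Gphn (31.1 to 46.2) varied little. Glra2, a Nova target, stood at 2.97 and 2.91 FPKM in the SVZ samples, 3.71 in OB, 4.09 in DG and 6.09 in STR. Agrn, another Nova target, stood at 54.6 to 76.3 FPKM in SVZ sample 1, OB and DG and 28.6 and 27.9 in the other set. No target passed the limma test in any pair.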

How the data were processed

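Poly(A) RNA of 5 libraries was sequenced, and the submitters' processing notes name CASAVA, TopHat 1.2.0, Cufflinks 1.0.0 and the build mm9 without a role or order. The deposited table holds FPKM values that the authors computed for 37142 transcripts, 28150 of RefSeq and 8992 of their lncRNA catalogue. FPKM carry no counts, so the depth is unknown and no counting interval is given. The members and lists were chosen with earlier results of these data known, and nothing here is independent support for them. FPKM of RefSeq transcripts were summed per symbol. Groups came from the labels. Using limma 3.58.1 (R 4.3.3), log2(FPKM + 1) of all genes was modelled in 4 region groups with moderated variances and a mean trend. Benjamini-Hochberg adjustment ran over the genes that reached 1 FPKM in either region of the pair. The script was tested on simulated data. The pseudocount of 1 understates folds of low genes. Named genes were all 10 members, the 8 genes of the RNA-binding protein lists with the largest range over regions at 5 FPKM or more, all described targets (some of which are not reported here), and the 3 genes most like a member with a range of 1.5 or more. GC content and sequences were read from GENCODE M21 by RefSeq accession, which covered 99.0% of coding genes. Matched transcripts can differ in length from the deposited ones, as for Msi1 and Msi2, so GC content may be that of another form. Alternatives were other pseudocounts, no filter, scaling, GC centring, the highest transcript, leaving out each SVZ sample, bridging, and, chosen after seeing the data, dropping the second Ptbp1 and Nova2 rows. Amino acid sequences were not used here.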

Additional observations from a re-analysis of the deposited data

How the results depend on the processing

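The count of members 1 log2 unit or more apart was small in every pair and moved with the setting. Median ratio scaling gave 1 member in SVZ minus STR (Msi1) and 1 in SVZ minus OB (Ptbp2). Centring on genes of like GC content gave 0 in SVZ minus STR, SVZ minus OB, DG minus STR and OB minus DG, and 1 in OB minus STR (Msi1). Taking only the highest transcript of each symbol gave 2 in SVZ minus DG (Elavl4 and Ptbp1), 3 in DG minus STR (with Msi1) and 3 in OB minus DG (with Msi2). Bridging gave 0 in OB minus STR and in DG minus STR. Leaving out 1 SVZ sample in turn gave 1 to 2 in SVZ minus STR, 0 to 3 in SVZ minus OB and 0 to 1 in SVZ minus DG; without SVZ sample 2, SVZ minus OB had 0, and without SVZ sample 1, Msi1 left SVZ minus STR. Pseudocounts of 0.1 and 0.5, no filter, and dropping the second rows, which was chosen after seeing the data, left the counts within 1.5 times of those reported.

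Of 500 values of single members under the alternatives, 383 lay within 1 SD of the SVZ samples of the reported value and 117 moved further. Many of the 383 were fixed in advance and show no robustness. Leaving out 1 SVZ sample always moves a value by less than that SD. Dropping the filter cannot change a member's difference, and the second rows concern only Ptbp1 and Nova2. The highest transcript changes nothing for members with a single transcript. By a separate count, 33 of the 500 lay on the other side of 1 log2 unit from the reported value. No difference of 1 or more changed sign. No gene passed the limma test under any setting for which it was run. With 1 sample of OB, DG and STR, differences within the spread of the SVZ samples could not be resolved, and depth is unknown. No paired analysis was possible because OB, DG and STR have 1 sample each and share fewer than 2 replicate numbers with the SVZ.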
